A study of Mus musculus with 9 samples.

Results

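The stored transcriptome of the ovulated mouse egg was described from the 3 wild-type arrays of a series of 9. The eggs were wild-type oocytes of strain C57BL/6 at metaphase II, and the labels name the 3 arrays biological replicates. Per the labels, follicle growth was stimulated with pregnant mare serum gonadotropin at 7.5 IU. Ovulation was triggered by human chorionic gonadotropin (hCG), also at 7.5 IU. The protocol places collection at 14 to 16 h after hCG and the source labels at 16 h, and cumulus cells were removed with hyaluronidase at 0.3 mg/ml. The age of the females and how many females and eggs stand behind each array were not given in the sources used here. Other arrays of the series were not used.

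A growing oocyte makes and stockpiles messenger RNA, and transcription stops before it ovulates. At metaphase II the cell waits, with its chromosomes on a spindle, for a sperm to trigger the end of meiosis. The RNA in such an egg is therefore the store from which proteins are made until the embryo switches on its own genes.

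Each gene was given 1 level, the mean log2 signal of its probe set over the 3 arrays, where a step of 1 is a 2-fold step in signal. Where a gene had several probe sets, the probe set with the highest mean was taken. The place of the probe sets in the genome was not checked, so the one taken can lie in a copy of the gene. This gave 19938 genes. Signal depends on the sequence of the probes as well as on the amount of RNA, so the order of single genes is not an order of abundance, and genes are placed in broad bands below. A low signal does not show that a transcript is absent.

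The lower limit came from 1027 olfactory receptor genes, sensory receptors for which an egg has no known use. Their median level was 3.43, and their 95th percentile, 5.51, was taken as the background limit. By this limit 8138 genes (40.8%) were at background. The high band holds the top 10% of genes, 1994 genes at 9.90 or above, and the remaining 9806 genes (49.2%) make up the middle band. Genes of the Y chromosome, which females lack, gave a second view of background. Of 9 measured, 8 lay below the limit. The exception was Sry, the testis-determining gene, at 6.54, 6.63 and 6.68 on replicates 1, 2 and 3. The limit is a percentile of the olfactory receptors, so the share of them above it was fixed in advance. How far above it they lay was not: their 99th percentile was 7.15, and Olfr976 lay in the high band at 10.72. Some probe sets thus give signal well above this limit in genes not expected in eggs.

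**Figure D1:**
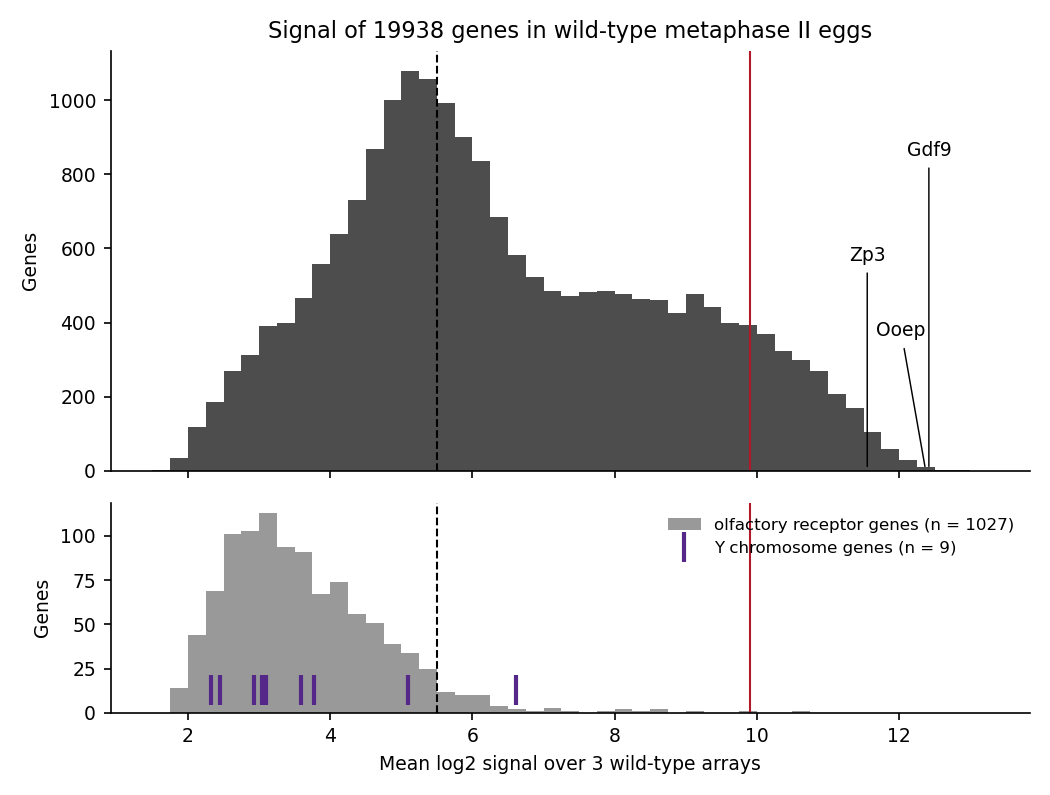
Number of genes (vertical axis) by mean log2 signal over the 3 wild-type arrays (horizontal axis), for 19938 genes above and for 1027 olfactory receptor genes below, where the vertical ticks mark 9 Y chromosome genes. The dashed line is the background limit of 5.51 and the solid line the start of the high band at 9.90; Zp3, Gdf9 and Ooep lie to the right of both.

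The markers of the egg were all high. Zp3, a glycoprotein of the egg coat that takes part in sperm binding, gave 11.66, 11.64 and 11.36. Gdf9, a growth factor that the oocyte secretes to the surrounding follicle cells, gave 12.42, 12.43 and 12.41. Ooep, a protein of the subcortical maternal complex, gave 12.41, 12.35 and 12.37. Each of the 3 genes lay in the high band on every array. Replicate 3 was the lowest for Zp3, by 0.28 to the nearest array.

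Markers of the cumulus and granulosa cells that surround the egg in the follicle lay mostly at background by the limit used here. None of the 27 measured markers was in the high band, 9 were in the middle band and 18 at background, with a median of 4.98. The count depends on the limit: with limits set lower, from vomeronasal receptor genes or at a fixed 4, 5 and 3 markers were at background. Of all 19938 genes, 15731 and 17202 lay above these lower limits. Under them the markers were at background about as often as genes in general. Fshr, the receptor for follicle-stimulating hormone, gave 4.96, 5.13 and 5.13. Has2, which makes the hyaluronan of the expanded cumulus, gave 4.51, 4.77 and 4.73, and Tnfaip6, which cross-links it, gave 3.85, 3.88 and 3.84. Inha (4.63), Amhr2 (4.98) and Ptx3 (4.36), further defining markers, also lay at background. Foxl2, a granulosa transcription factor, lay just above the limit at 5.99, 5.59 and 6.01. The top marker of that list was Nr5a2, a nuclear receptor, at 9.80, close to the high band.

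Markers of other cell types were spread over the lower bands. Of 17 oviduct markers, 11 lay at background, among them the ciliary regulator Foxj1 (5.40) and the epithelial marker Epcam (5.15), and Pax8 was just above the limit at 5.75. The single oviduct marker in the high band was Cdh1, the adhesion molecule E-cadherin, at 10.92, which is also a molecule of egg and early embryo. The smooth muscle myosin Myh11 lay next to the high band at 9.70, 9.75 and 9.81, and the ciliary dynein gene Dnah11 (8.54) and the keratin gene Krt8 (7.07) lay in the middle band; these 3 were named after their values were seen. Of 15 immune and blood markers, 10 lay at background, including the pan-leukocyte gene Ptprc (4.85). The B-cell gene Ms4a1 stood apart at 9.18. Genes of muscle, liver and neuron lay at background in 23 of 40 cases and never in the high band. The same held for 11 of 16 hormone genes of pancreas and pituitary, where Lhb, the beta chain of luteinizing hormone, reached 8.64. These lists therefore left up to 17 members in the middle band, and the middle band as drawn includes signal from genes with no known role in eggs.

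The 30 highest named genes spanned only 0.81 (log2), from 12.06 to 12.87. They held several known egg products: the secreted factors Gdf9, Bmp15 and Oosp1; the subcortical proteins Ooep and Nlrp5; the imprint protector Zfp57; the oocyte form of the cap-binding protein, Eif4e1b; the decapping factor Dcp1a; Rfpl4, a RING finger-like protein of germ cells; Tcl1; and Bcl2l10, a Bcl2 family member. Beside these stood genes that most cells use. Sod1, superoxide dismutase, had the top signal of all, at 12.89, 12.82 and 12.89. Hsp90aa1, a chaperone, gave 12.38 on all 3 arrays after rounding, Ube2d3, a ubiquitin-conjugating enzyme, gave 12.32, 12.33 and 12.32, and Eef1a1, the elongation factor of translation, gave 12.20, 12.23 and 12.30. Ldhb (12.20), Calm2 (12.21), Selenow (12.22), Snrpd3 (12.13), Rbbp7 (12.16), Gtf2a1 (12.17) and Taf1a (12.06) were in the same group. So were Baiap2l1, a membrane-curving actin regulator, at 12.67, Mdm4, a p53 inhibitor, at 12.46, and Elobl, a relative of elongin B, at 12.43. The remaining names were Mospd1, D10Wsu102e, Aunip, Psenen and Accsl. Whether the probe sets of this group lie in the named genes or in copies elsewhere was not checked. The median SD over this group was 0.023, and 26 of the 30 highest genes of an array were shared by all 3 arrays.

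A set of 31 lists of genes with known roles was read against the bands, each to be set beside the 10% of all genes that are in the high band and the 40.8% at background. The lists were chosen with results of these data known, some genes stand in several lists, and the shares are descriptions without a test. Of 981 genes written in the lists, 869 entries were measured.

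**Figure D2:**
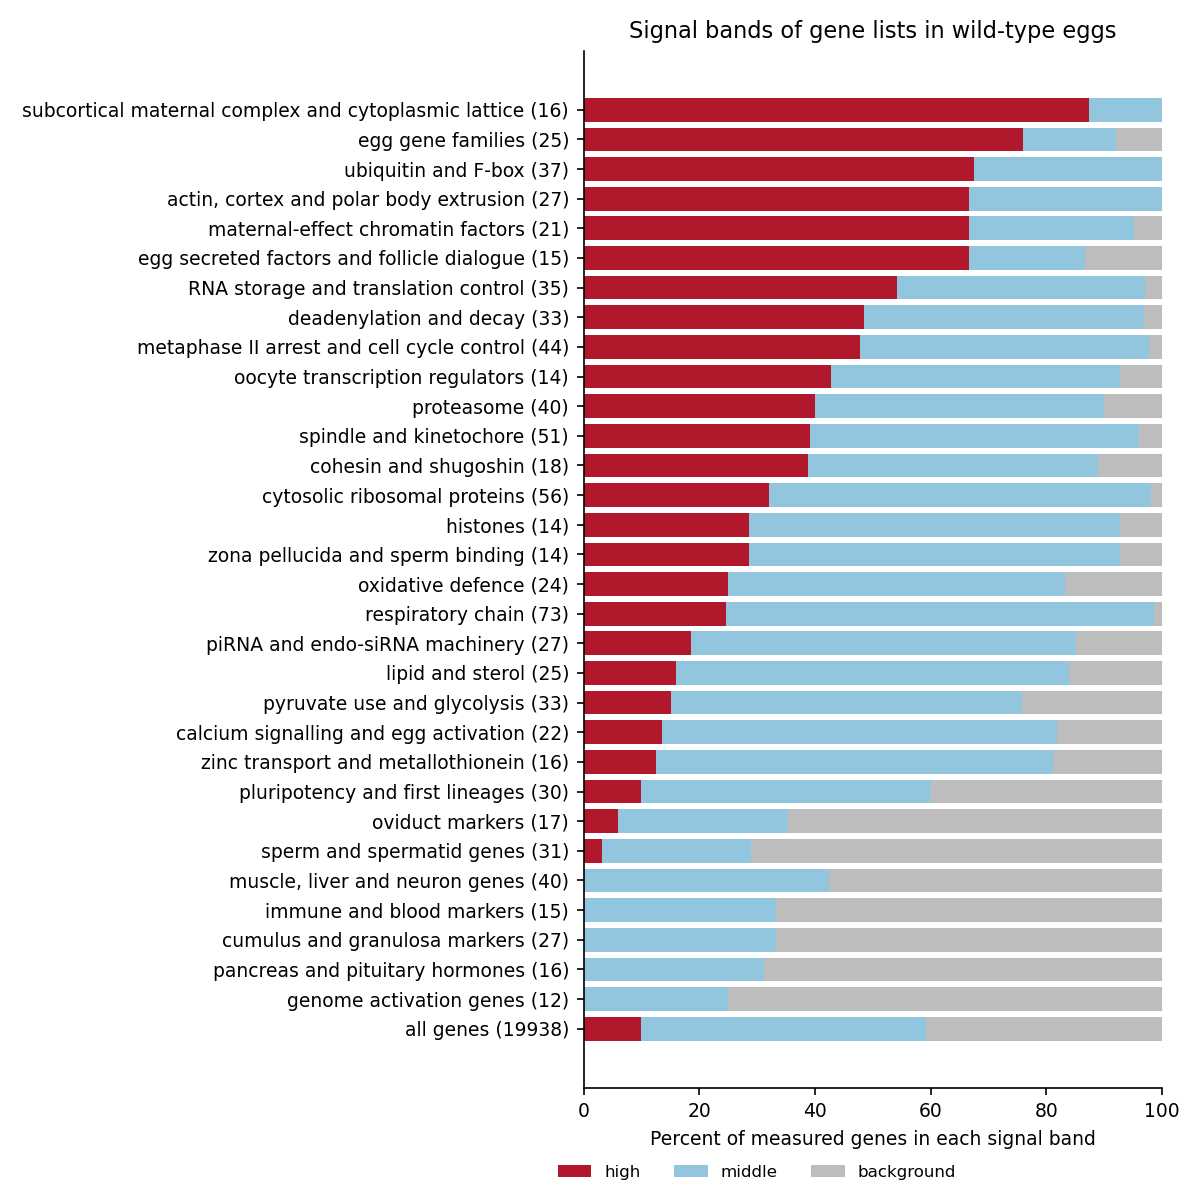
Percent of the measured genes of each list (horizontal axis) in the high, middle and background bands of the wild-type egg, with the number measured in brackets and all 19938 genes at the bottom. The bars for the subcortical maternal complex and the egg gene families are mostly high band, and those for genome activation genes and markers of other cells mostly background.

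The egg coat and sperm-binding genes split by role. The 3 zona pellucida genes were all high: Zp1 at 11.92, 12.01 and 11.93, Zp2 at 11.42, 11.42 and 11.29, and Zp3 as above. Fetub, an inhibitor that keeps the zona from hardening too early, joined them at 10.04. Astl, or ovastacin, the enzyme that cuts the zona after fertilization, gave 9.96, 10.002 and 9.49, and so crossed into the high band on replicates 1 and 2 and not on replicate 3. Cd9, a tetraspanin needed for sperm-egg fusion, was in the middle band at 9.34. Izumo1r, or Juno, the egg receptor for the sperm protein Izumo1, was also in the middle band at 8.88; it was named after its value was seen, as was Tarbp2 (7.97), an RNA-binding protein that the list holds without being a sperm-binding factor. Lypd4 lay at background at 4.40. In all, 4 of 14 members were high, 9 middle and 1 background.

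Proteins that line the egg cortex had the largest high share of the 31 lists. The subcortical maternal complex is a protein assembly under the egg membrane that the embryo needs to divide past its first cleavages, and the cytoplasmic lattices are fibres thought to store proteins. Of 16 measured members, 14 were high and 2 middle, with a median of 11.23. Nlrp5 (Mater), a core subunit, gave 12.06, 12.08 and 12.06. Padi6, which the lattices need in order to form, gave 11.93, 12.02 and 11.98. Zbed3 (12.02), Nlrp14 (11.97) and Uhrf1 (11.88), the partner of the DNA methyltransferase Dnmt1, were as steady. The exceptions were Nlrp4e at 9.37 and Khdc3 (Filia), a core subunit, at 8.76, 8.51 and 7.85. Khdc3 thus had a range of 0.90 over the arrays, while the list's median SD was 0.043. Nlrp2, the lowest member in the high band, gave 10.23, 10.44 and 10.07.

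Signals between egg and follicle were also high, 10 of 15. Bmp15, the partner of Gdf9, gave 12.35, 12.36 and 12.36. The oocyte-secreted proteins Oosp1, Oosp3 and Oosp2 gave 12.06, 11.86 and 11.75, and Kit, the receptor through which granulosa cells promote oocyte growth, gave 11.08. The 2 members at background are known from the follicle-cell side: Gja1, the connexin of granulosa cells, at 4.57, 4.47 and 4.60, and Npr2, the receptor that makes cyclic GMP in cumulus cells, at 4.52, 4.56 and 4.52. Fgf8, an oocyte-derived growth factor, was in the middle band at 7.61.

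Among transcription regulators of the oocyte, 6 of 14 were high. Zfp57, which protects imprints, gave 12.44, 12.44 and 12.46, and Obox5, an oocyte homeobox gene, gave 11.99. Nobox, a homeobox factor of follicle growth, gave 11.11, 11.23 and 11.22, and Pou5f1 (Oct4) gave 10.58, 10.56 and 10.63. Foxo3, which holds follicles in reserve, and Ctcf, the insulator protein, were both at 10.13. Figla, which directs the zona genes early in oocyte growth, lay only just above the limit at 6.08, 6.08 and 6.05, as did Sohlh1 at 6.09. Obox6 was at background, with a level of 3.996.

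Chromatin factors that the egg hands to the embryo were high in 14 of 21 cases. Dnmt1, which maintains DNA methylation, gave 12.01, 12.08 and 12.02. Ezh2, the methyltransferase of a Polycomb repressive complex, gave 11.85, and the oocyte linker histone H1f8 gave 11.82. Tet3, which oxidizes methylated cytosine in the paternal genome after fertilization, gave 11.41, 11.42 and 11.49. Dppa3 (Stella), which shields the maternal genome from that oxidation, gave 11.38, 11.33 and 11.39. Dnmt3b (7.76), a de novo methyltransferase, and the histone H3.3 chaperone Hira (7.26) were in the middle band, and the demethylase Kdm5b was at background at 4.50.

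Stored RNA has to be kept silent, woken and finally destroyed, and some but not all of the genes listed for these steps had high signal. In the list for storage and translation control, 19 of 35 were high and 1 was at background. Eif4e1b gave 12.55, 12.61 and 12.59. Its binding partner Eif4enif1 gave 11.35, 11.37 and 11.46. Lsm14a, a protein of silenced RNA granules, gave 11.80, the double-stranded RNA-binding protein Stau1 gave 11.62, and Dazl, a germ-cell translation regulator, gave 11.37. Zar1, the zygote arrest protein, gave 11.30, 11.44 and 11.45. The single background member was Tut4, a terminal uridylyl transferase, with the same value of 3.05 on all 3 arrays. Msi1 (5.73) and Nanos3 (6.28) were just above the limit.

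Deadenylation and decay genes were high in 16 of 33 cases, with Zfp36l1 (5.49) alone at background. Btg4, the adaptor that brings the CCR4-NOT deadenylase to maternal messages, gave 11.82, 11.81 and 11.82. Cnot6l and Cnot7, catalytic subunits of that deadenylase, gave 11.80 and 11.62, Cnot3 gave 11.81, and Cnot1, its scaffold, gave 11.34. Dcp1a, of the decapping complex, gave 12.16, 12.13 and 12.14, while its relative Dcp1b gave 7.25. Edc3, an enhancer of decapping, lay just above the limit at 5.82. In a survey of 264 families defined by the letters of the symbol before the first digit (10 or more genes each), Cnot had the largest high share, 8 of 11.

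Meiotic arrest at metaphase II is held by cyclin B with Cdk1, by the Mos kinase pathway and by Fbxo43 (Emi2), an inhibitor of the anaphase-promoting complex. Of 44 measured genes of arrest and cell cycle control, 21 were high, 22 middle and 1 background. Fbxo43 gave 11.51, 11.52 and 11.44. Wee2, the oocyte kinase that restrains Cdk1, gave 11.87, 11.90 and 11.90. The checkpoint genes Bub1b (12.03), Ttk (11.36) and Mad2l1 (11.24) and the germ-cell Aurora kinase Aurkc (11.23) were high. Mos itself, named after its value was seen, gave 10.91, 10.84 and 10.19, with replicate 3 lower by 0.66 than the next array. Cdk1, also named after its value was seen, was in the middle band at 9.70. Ccne1 (6.47) and Cdc16 (7.21) were low in the middle band, and Camk2d was at background at 4.57. Ccnb1 has no probe set named here.

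Cohesin and its guards, which hold sister chromatids together until fertilization, were high in 7 of 18 cases. Pttg1 (securin), which blocks the protease that cuts cohesin, gave 11.83, 11.84 and 11.88. The ring subunits Smc3, Rad21 and Smc1a gave 11.22, 10.82 and 10.13, the releasing factor Wapl gave 10.85, and the loader Nipbl gave 10.51. The meiotic kleisins were at background: Rec8 at 5.24 on all 3 arrays and Rad21l at 5.06, 4.72 and 4.45. Stag3, the meiotic partner of Rec8, was at 6.36.

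For spindle and kinetochore the high share was 20 of 51, with 29 middle and 2 background. Kif23 and Prc1, which act at the spindle midzone, gave 11.68 and 11.24. Tacc3, a spindle pole and microtubule factor, gave 11.18, 11.19 and 11.14, and the kinetochore proteins Cenpf and Nuf2 gave 11.15 and 11.06. Birc5 (survivin), of the chromosomal passenger complex, gave 11.03. Haus2 (5.12) and Asb7 (5.05) were at background, and Hmmr was at 5.95.

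Actin-based asymmetric division places the spindle at the cortex and pinches off the polar body. Of 27 genes for it, 18 were high and none was at background. Rdx (radixin), which ties actin to the membrane, gave 12.04, 12.13 and 11.92, and its relatives Msn (moesin) and Ezr (ezrin) gave 6.37 and 5.99. Cfl1 (cofilin), which severs filaments, gave 11.45 on all 3 arrays. The small GTPase Rac1 gave 11.25, Myo10, an unconventional myosin, 11.10, Arpc2, of the branching complex, 11.06, and Pfn1 (profilin) 11.03.

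Calcium and zinc signals that accompany egg activation had fewer high members. For calcium they were 3 of 22: calmodulin Calm2, at 12.24, 12.21 and 12.17; Atp2a2 (SERCA2), which refills the stores, at 11.95, 11.95 and 11.96; and the plasma membrane pump Atp2b1 at 10.56. Ppp3r1, a calcineurin subunit, was at 9.07, Itpr2, a receptor for inositol trisphosphate, at 8.73, and the channel Cacna1h at 8.52. At background were Stim1 (5.06), the sensor of store calcium, Camk2a (5.22) and Prkca (5.28). Plcz1, the sperm phospholipase that starts the calcium waves, gave 2.86, 2.95 and 2.87. Itpr1 has no probe set named here. For zinc, the high members were the importers Slc39a10, at 11.62, 11.70 and 11.70, and Slc39a6, at 11.22, 11.24 and 11.24. The exporters Slc30a4 (9.63), Slc30a5 (9.17) and Slc30a1 (8.75) were in the middle band. Metallothionein Mt1 was at 8.06, while Mt2 (4.69) and Slc39a8 (4.43) were at background.

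Mouse eggs live on pyruvate and use glucose poorly. The pyruvate and glycolysis list had 5 high members of 33, with 20 middle and 8 background. Ldhb, the heart-type lactate dehydrogenase, gave 12.18, 12.21 and 12.21, while Ldha, the muscle type, named after its value was seen, was near the limit at 5.65, 5.56 and 5.67. Dld, a shared subunit of the pyruvate dehydrogenase complex, gave 11.07. Hexokinase Hk1 (10.59), pyruvate kinase Pkm (10.52) and aldolase Aldoa (10.27) were high, and Slc2a1, a glucose transporter, was just below at 9.77. Slc2a3 (4.76), Pdk4 (3.76) and the testis form Pgk2 (3.83) were at background.

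Antioxidant genes were high in 6 of 24 cases. Beside Sod1 these were the peroxiredoxins Prdx2 (11.57) and Prdx1 (10.93), glutaredoxin Glrx (11.39), thioredoxin Txn1 (11.05) and the glutathione transferase Gsta4 (10.79). Catalase, Cat, was at background at 5.31, 5.31 and 5.33, with Txnrd2 (4.98), Gstm1 (4.92) and Gstm2 (5.35). In lipid and sterol metabolism, the high members were 4 of 25: the sterol synthesis enzymes Fdft1 (11.71) and Hmgcs1 (11.09), the sterol sensor Insig1 (10.98) and Hadha (10.27) of fatty acid oxidation. Scd1 (4.20), Scd2 (4.35), Cpt1a (4.65) and Acadl (5.04) were at background.

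The housekeeping machines lay between these extremes. Cytosolic ribosomal proteins were high in 18 of 56 cases, with Rpl4 at 11.64, 11.65 and 11.65, Rpl10 at 11.61 and Rps2 at 10.84. Rpl12 alone was at background, at 3.69, with Rpl9 (5.79) and Rpl30 (5.86) near the limit. These genes have many near-identical processed copies in the genome, so their probe sets can share signal and their single levels are uncertain. Respiratory chain genes were high in 18 of 73 cases and at background in 1, Uqcrc1 (5.34), with Ndufc2 and Ndufa10 at 10.92 and 10.91. Proteasome genes were high in 16 of 40 cases, led by Psma7 (11.52), a core subunit, and the activator Psme3 (11.46). The 4 at background were Psma8, the form of testis, at 3.94, the immune subunits Psmb8 (5.01) and Psmb10 (5.31), and Psmd13 (5.22).

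Ubiquitin ligases and their partners were high in 25 of 37 cases and never at background. Ube2d3 and Rfpl4 are among the 30 highest genes above. The deubiquitinase Usp9x gave 11.68, 11.73 and 11.68, the ligase scaffold Cul1 gave 11.68, the hydrolase Uchl1 gave 11.54 and the ligase Rnf114 gave 11.52. The lowest members were Fbxw17 (6.77), Cul4a (6.98) and Fbxo15 (7.65).

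Small RNA pathways were mostly in the middle band, 18 of 27, with 5 high and 4 at background. Dicer1, which cuts double-stranded RNA into short interfering RNAs, gave 11.66, 11.67 and 11.67. Tdrd12 (11.33), Asz1 (10.43) and Henmt1 (10.33), of the piRNA pathway, and Tnrc6c (10.09), of the silencing complex, were the other high members. Ago1 (5.06), Ago4 (4.33), Piwil4 (5.08) and Prkra (4.22) were at background. Of the histone genes measured, H1f8, H1f1 (10.14) and H2az1 (9.92) were high, together with Slbp, the protein that binds histone messages, at 11.37, 11.40 and 11.33. H1f3 was at background at 3.89.

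Genes that mark the embryo's own first transcription were low. Of 12 measured, 9 were at background and none was high, with a median of 4.51. With a fixed limit of 4, 4 of them were at background. Tcstv3, a gene of the 2-cell stage, was the top member and varied, at 7.53, 8.23 and 6.95. Tdpoz2 (5.80) and Usp17lc (5.79) were just above the limit. Usp17la (3.04), Tdpoz3 (3.20) and Pramel7 (3.43) were the lowest. Many of these genes belong to families of near-identical copies. Pluripotency and lineage genes lay in the bands as all genes do, with 3 of 30 high, 15 in the middle band and 12 at background. Sall4, at 11.25, 11.27 and 11.24, Dppa2, at 11.09, 11.01 and 10.97, and Pou5f1 were high, and the RNA-binding protein Lin28a was at 9.42. The lowest were Zfp42 (3.66), Elf5 (4.40) and Fgf4 (4.53). Nanog, named after its value was seen, was at 5.20, 5.16 and 5.22.

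Sperm and spermatid genes were at background in 22 of 31 cases, and in 11 and 7 with the lower limits from vomeronasal receptors and at a fixed 4. Odf2, at 10.31, 10.25 and 10.25, was the single high member; it encodes a protein of centrioles as well as of the sperm tail. Catsper2 (7.08) and the protamine Prm2 (6.88) were in the middle band.

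Gene families known for members made in eggs and early embryos were high in 19 of 25 cases, with a median of 11.25. Tcl1, an Akt co-activator, gave 12.02, 12.04 and 12.14, and its relatives Tcl1b2 and Tcl1b1 were both at 11.98. Omt2b gave 11.85, 11.98 and 11.98, and E330034G19Rik gave 11.97. Oas1e, one of the oligoadenylate synthetase-like genes, gave 11.87, 11.89 and 11.82. The list also holds genes that other cells use, such as Spin1 (11.39). Gtsf1 (11.17) was high as well, and both were named after their values were seen. The Oas1 family was not uniform: Oas1a (6.46), Oas1b (7.48) and Oas1f (8.21), named after their values were seen, were in the middle band. H2bu2 was at 6.27, and Bpifb9a (5.31) and Pramel1 (4.90) were at background.

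Several of these families are clusters, and whole stretches of chromosome were in the high band. In the order of the reference gene table, 9 runs of 4 or more neighbouring measured genes were all high, 42 genes in all. The 3 longest had 6 genes each. One was Tcl1b2, Tcl1b1, Tcl1b5, Tcl1b3, Tcl1b4 and Tcl1, with levels from 10.18 to 12.07; its flanking genes Glrx5 (9.52) and Bdkrb2 (5.17) were outside the band. The second was Rn7sk, Gsta4, Omt2a, Omt2b, Dppa5a and Ooep. It joins unrelated genes, a small nuclear RNA, a glutathione transferase and several egg products, and ends at Ddx43 (3.73). Dppa5a, related in sequence to Ooep, gave 10.60, 10.39 and 9.49 and so left the band on replicate 3. The third was the F-box run Fbxw20, Fbxw22, Fbxw15, Fbxw24, Fbxw18 and Fbxw26, from 10.45 to 11.33, which stops at the protease inhibitor gene Spink8 (3.73). Its other end was not sharp: Fbxw13 (9.76) lay just below the band, and Fbxw21 (11.04), next to it, was high.

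Shorter runs of 4 genes were of other kinds. Pramel23, Pramel25, Pramel27 and Oog3, from 10.28 to 11.54, are relatives of 1 family, and their neighbours Pramel20 (4.53) and Pramel5 (4.31), of the same family, were at background. Beyond these neighbours, Oog4 (11.37), Pramel15 (10.485) and Pramel13 (11.39) were high again. Ddx5, Cep95, Smurf2 and Kpna2; Sap130, Ammecr1l, Polr2d and Wdr33; Ttc9c, Hnrnpul2, Gng3 and Bscl2; and Zfand5, Gda, 1110059E24Rik and Abhd17b are runs of unrelated genes. The ninth held 3 long noncoding RNAs, 4933427D06Rik, Gm1965 and Gm839, next to Plxna1. Probe sets of close relatives can take up each other's transcripts, so levels within the Tcl1b, Fbxw, Omt2 and Pramel runs are not fully separate measurements.

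**Figure D3:**
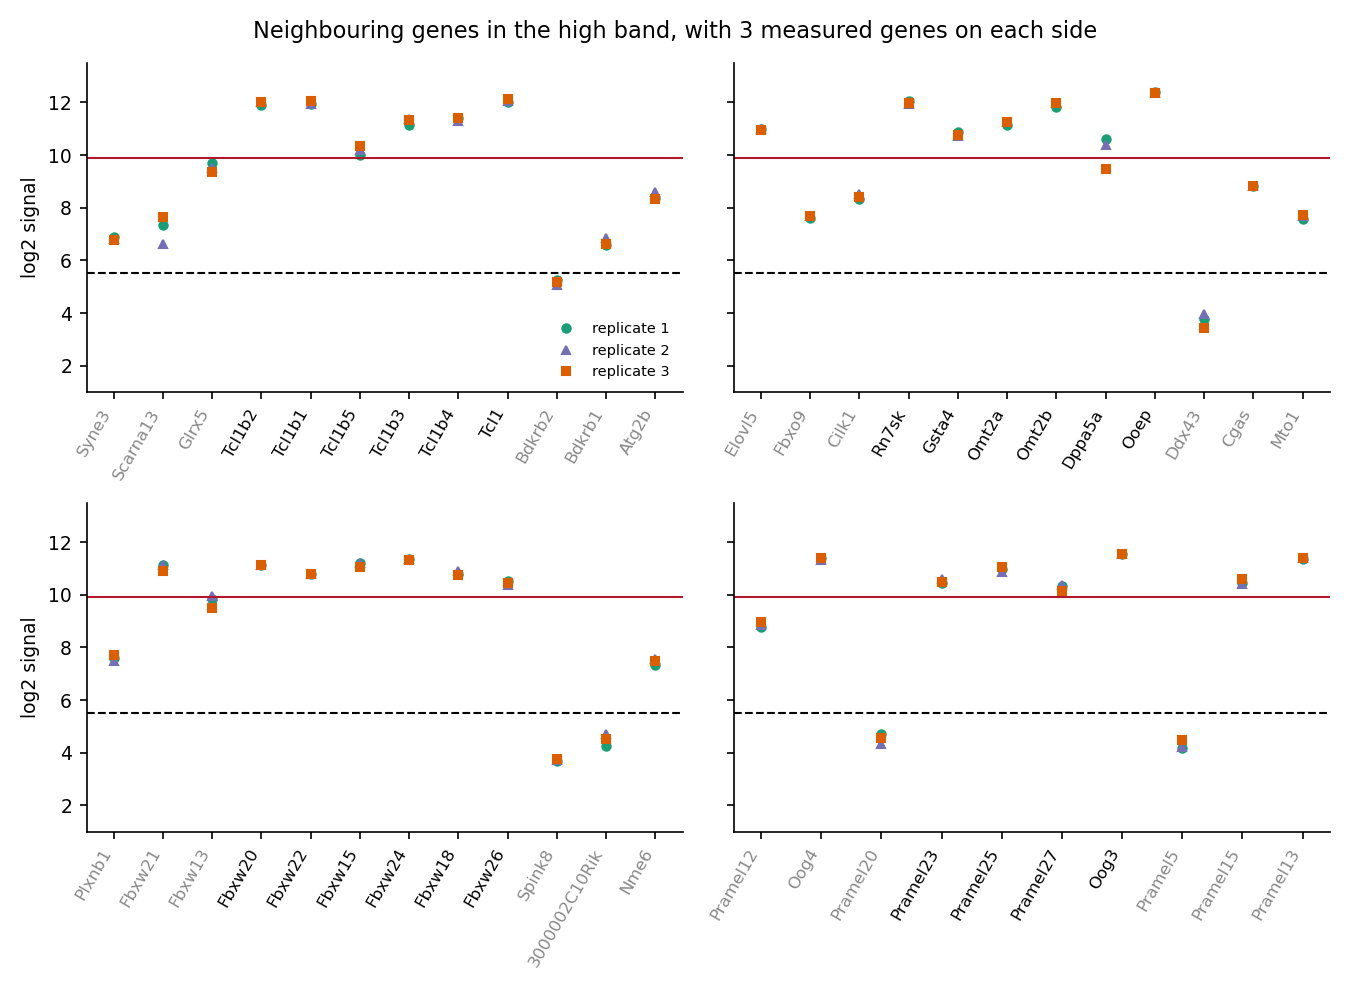
Log2 signal (vertical axis) on each of the 3 wild-type arrays for 4 runs of neighbouring high genes (black names) and for 3 measured genes on each side (grey names), in chromosome order. The solid line is the start of the high band at 9.90 and the dashed line the background limit of 5.51. On the right, the Tcl1, Ooep and Fbxw runs fall off at Bdkrb2, Ddx43 and Spink8. Left of the Fbxw run, Fbxw21 is again high.

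The Tcl1b genes also share a stretch of sequence before their starts. RefSeq promoters of build GRCm38.p6 are shown for the 5 genes, each as 100 bases from the region upstream of the start on the plus strand. The windows were placed on the longest run of bases that holds CACCTG and is the same in all 5 genes, 22 bases. The stretches line up in this way and end 29 (Tcl1b1), 15 (Tcl1b2 and Tcl1b5), 31 (Tcl1b3) and 2 (Tcl1b4) bases before the start. They are printed with the E-box CACCTG and its reverse complement CAGGTG in capitals. E-boxes of the form CANNTG are the sites of basic helix-loop-helix factors such as Figla. The stretches are at chr12:105159576-105159675 for Tcl1b1, chr12:105146905-105147004 for Tcl1b2, chr12:105190915-105191014 for Tcl1b3, chr12:105202294-105202393 for Tcl1b4 and chr12:105176230-105176329 for Tcl1b5.
Tcl1b1: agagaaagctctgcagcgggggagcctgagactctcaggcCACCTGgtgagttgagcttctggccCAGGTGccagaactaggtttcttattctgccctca
Tcl1b2: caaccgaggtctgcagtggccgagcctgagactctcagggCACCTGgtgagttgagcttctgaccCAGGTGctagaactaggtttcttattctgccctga
Tcl1b3: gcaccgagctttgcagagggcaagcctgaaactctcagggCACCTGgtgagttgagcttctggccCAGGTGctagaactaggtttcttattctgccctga
Tcl1b4: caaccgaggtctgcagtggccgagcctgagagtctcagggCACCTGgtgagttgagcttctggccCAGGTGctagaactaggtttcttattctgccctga
Tcl1b5: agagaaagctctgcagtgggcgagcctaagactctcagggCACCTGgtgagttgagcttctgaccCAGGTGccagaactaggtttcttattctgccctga
Each stretch holds 2 such E-boxes, and the 10 pairs are 87 to 98% identical over these 100 bases. The shared CACCTG and part of this identity follow from how the windows were placed. Identity over the whole 250 bases was not measured. Over all 12435 protein-coding genes with 1 listed start, CACCTG on either strand was found in the 250 bases upstream of 16.5%, and the share hardly differed between bands, at 15.1% in the high, 16.6% in the middle and 16.8% in the background band. The Tcl1b copies descend from a common ancestor and are not independent cases, and a match is a description of the letters only.

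The broader sequence feature that differed between bands was the CpG dinucleotide. Most promoters of widely used genes are rich in CpG, and many tissue-restricted genes have CpG-poor promoters. The median number of CpG in the 250 bases upstream was 19 for high genes, 15 for middle genes and 3 for background genes. Relative to the number expected from base composition, the medians were 0.82, 0.71 and 0.26. Promoters with 5 or fewer CpG, termed CpG-poor here, made up 33.8% of all these genes, 8.49% in the high band (109 of 1284), 16.1% in the middle band and 61.8% in the background band. Olfactory and vomeronasal receptor genes, which set the limit or resemble those that did, account for part of the last share: without them the share was 52.9% of 4058 genes. TATAAA on either strand was found in 5.84% of high, 6.99% of middle and 19.9% of background genes, beside 12.1% of all. The general E-box CANNTG was found in 51.9%, 58.8% and 68.2%, beside 61.9% of all, and the homeobox element TAATTG on either strand in 4.75%, 4.41% and 9.51%, beside 6.51% of all. The median GC content of the 250 bases also differed, at 61.6% in high, 59.6% in middle and 49.6% in background genes. The shares of these motifs were not adjusted for it.

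Among high genes, those of the subcortical complex and egg family lists were mostly CpG-poor. Of the 7 high members of the subcortical complex list with 1 listed start, 6 were CpG-poor, with a median of 2 CpG. Of 15 such members of the egg gene families, 11 were CpG-poor, with a median of 3. None of 15 high ribosomal protein genes and none of 13 high proteasome genes was CpG-poor, with medians of 18 and 16. Other oocyte lists differed: of high egg secreted factors 3 of 6 were CpG-poor, with a median of 6.5, and of high oocyte transcription regulators 1 of 4, with a median of 21. High chromatin factors had a median of 23 CpG, and 1 of 9 was CpG-poor. High genes of RNA storage had a median of 19.5, with 2 of 14 CpG-poor. High ubiquitin and F-box genes were mixed, with 6 of 17. Egg lists with many related genes contribute several copies of 1 promoter to these counts.

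Bmp15 and Sod1, both among the 30 highest genes, show the contrast. Their 250 bases upstream of the start are printed from RefSeq (GRCm38.p6), each read toward its gene, with every CG in capitals. That of Bmp15 lies at chrX:6320725-6320974 on the minus strand and holds 2 CpG. That of Sod1 lies at chr16:90220512-90220761 on the plus strand and holds 26.
Bmp15: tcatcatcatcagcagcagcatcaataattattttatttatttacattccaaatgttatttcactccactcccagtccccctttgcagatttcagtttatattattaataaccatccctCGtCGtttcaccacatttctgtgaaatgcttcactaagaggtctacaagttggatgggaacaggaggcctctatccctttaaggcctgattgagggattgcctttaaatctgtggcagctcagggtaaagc
Sod1: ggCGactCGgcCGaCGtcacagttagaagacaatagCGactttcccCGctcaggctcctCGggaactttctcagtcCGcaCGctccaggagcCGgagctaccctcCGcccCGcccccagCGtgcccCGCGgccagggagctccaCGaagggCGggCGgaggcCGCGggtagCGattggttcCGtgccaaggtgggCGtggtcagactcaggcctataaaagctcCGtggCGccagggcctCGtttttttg

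**Figure D4:**
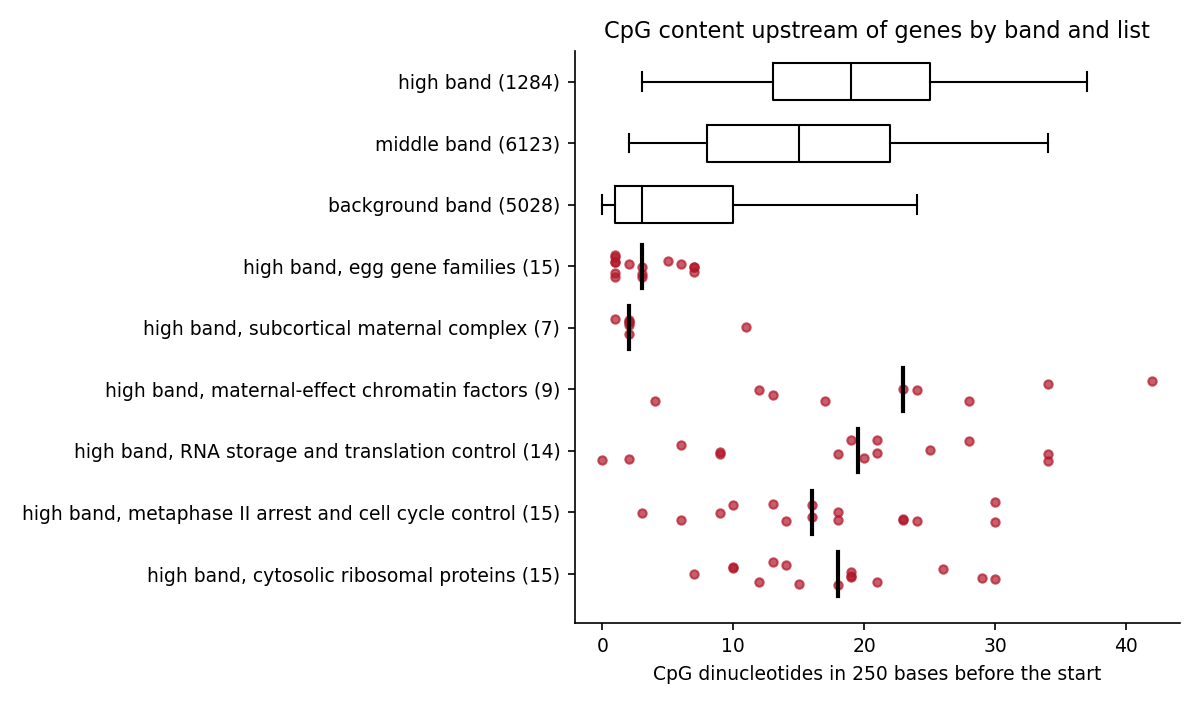
Number of CpG dinucleotides in the 250 bases before the start (horizontal axis) for protein-coding genes with 1 listed start, by signal band (boxes with median and quartiles, whiskers from the 5th to the 95th percentile) and for the high members of 6 lists (points, with the median as a bar; points are shifted vertically at random for clarity). High genes as a whole have a median of 19, and high members of the egg gene families and the subcortical complex have medians of 3 and 2.

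Families away from the egg formed the other end of the survey. Of 264 families, 90 had no member in the high band and 25 had at least 80% at background. Over all genes 10% were high and 40.8% at background, so a small family can easily lack a high member. The olfactory receptors, with 975 of 1027 at background, are among the 25 because the limit was set from them. All 22 protocadherins beta (Pcdhb), all 15 Serpina protease inhibitors of liver and all 11 secretoglobins (Scgb) were at background. So were 19 of 20 prolactin relatives (Prl), 165 of 167 vomeronasal receptors and 35 of 37 taste receptors (Tas). At the high end, 6 families had at least 50% in the high band: Cnot, with 8 of 11; Nup, the nucleoporins, with 13 of 20; Taf, mainly cofactors of the basal transcription machinery, with 12 of 24; and Srsf and Sf, of splicing, and Naa, of protein acetylation, with 5 of 10 each. The translation initiation factors (Eif) had 23 of 49 and the Nlrp genes 9 of 19. Pramel was split, with 6 of 14 high and 6 at background. Some families lay almost wholly in the middle band, such as the coenzyme Q genes (Coq), 11 of 11, the helicases Dhx, 15 of 16, and the mitochondrial ribosomal proteins Mrps, 26 of 29. These families were picked for the text after the survey was seen.

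The 3 arrays were close to each other. Across genes, which are not independent replicates, the correlation between arrays was 0.996 for each pair. Array medians were 5.99, 5.97 and 6.00, but the deposited values had already been brought to a common scale. The median SD of a gene was 0.085 over all genes, 0.045 in the high band, 0.095 in the middle band and 0.088 at background. Of the 1994 highest genes on an array, 1874 (94.0%) were shared by all 3. A total of 406 genes had exactly the same deposited value on all 3 arrays, with no tolerance, of which 275 were at background and 13 in the high band, Bcl2l10 (12.11) and Cfl1 among them. For those genes the SD of 0 does not measure the spread between samples. Counting ties of at least 2 arrays, 3247 genes (16.3%) shared a value, 23.9% of background, 11.6% of middle and 7.97% of high genes. The median SDs above include all these genes.

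Few genes moved by 2-fold between arrays. A range of at least 1 (log2) was found in 126 genes (0.632%), of which 87 lay above the limit and 2 in the high band. In 52 of those 87, replicate 3 was the lowest array, against 18 for replicate 1 and 17 for replicate 2. The widest was H2bc18, a histone H2B gene, at 5.67, 5.82 and 9.84. Arl2, a small GTPase, was also higher on replicate 3, at 9.48, 9.60 and 11.29, as was Lin52, at 6.84, 6.84 and 8.26. Marchf7, a ubiquitin ligase, went the other way at 10.44, 10.38 and 8.62. Leprot gave 10.06, 10.14 and 8.51, Mtx2 gave 7.62, 7.89 and 6.29, and B2m, the light chain of class I histocompatibility molecules, gave 8.55, 8.86 and 7.30. Dcpp3 gave 6.995, 6.85 and 4.88. Acbd7, at 5.82, 7.03 and 4.98, and Reg3d, at 5.20, 6.85 and 5.68, were highest on replicate 2. In 8 of these 10 genes replicates 1 and 2 were close together and replicate 3 stood apart.

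Spread was also shared by groups. Ribosomal protein genes had a median SD of 0.18 and respiratory chain genes of 0.16, against 0.038 to 0.11 in the other 29 lists. In both groups replicate 1 tended to be highest and replicate 3 lowest. The median deviation from the gene's mean was 0.17 on replicate 1, 0.005 on replicate 2 and -0.16 on replicate 3 for ribosomal proteins, a span of 0.33. Replicate 1 was the highest array for 42 of these 56 genes and replicate 3 the lowest for 37. Examples named after their values were seen are Rps28 at 10.18, 10.22 and 9.43, Rps15 at 10.43, 10.22 and 9.81, and Rpl23 at 10.37, 10.14 and 9.72. Rpl4, by contrast, differed by less than 0.02 over the arrays. For the respiratory chain the deviations were 0.12, 0.004 and -0.10, with replicate 1 highest for 44 of 73 genes and replicate 3 lowest for 40. Ndufa4 gave 10.50, 10.79 and 10.13, and Atp5c1 gave 10.75, 10.29 and 10.17, also named after their values were seen. Over all genes, which the deposited values had already brought to a common scale, the same deviations were -0.003, -0.007 and 0.009. The span stayed between 0.31 and 0.36 for ribosomal proteins and between 0.20 and 0.22 for the respiratory chain under every scaling and choice of probe set tried. The part that RNA quality or the handling of single samples has in it was not tested.

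**Figure D5:**
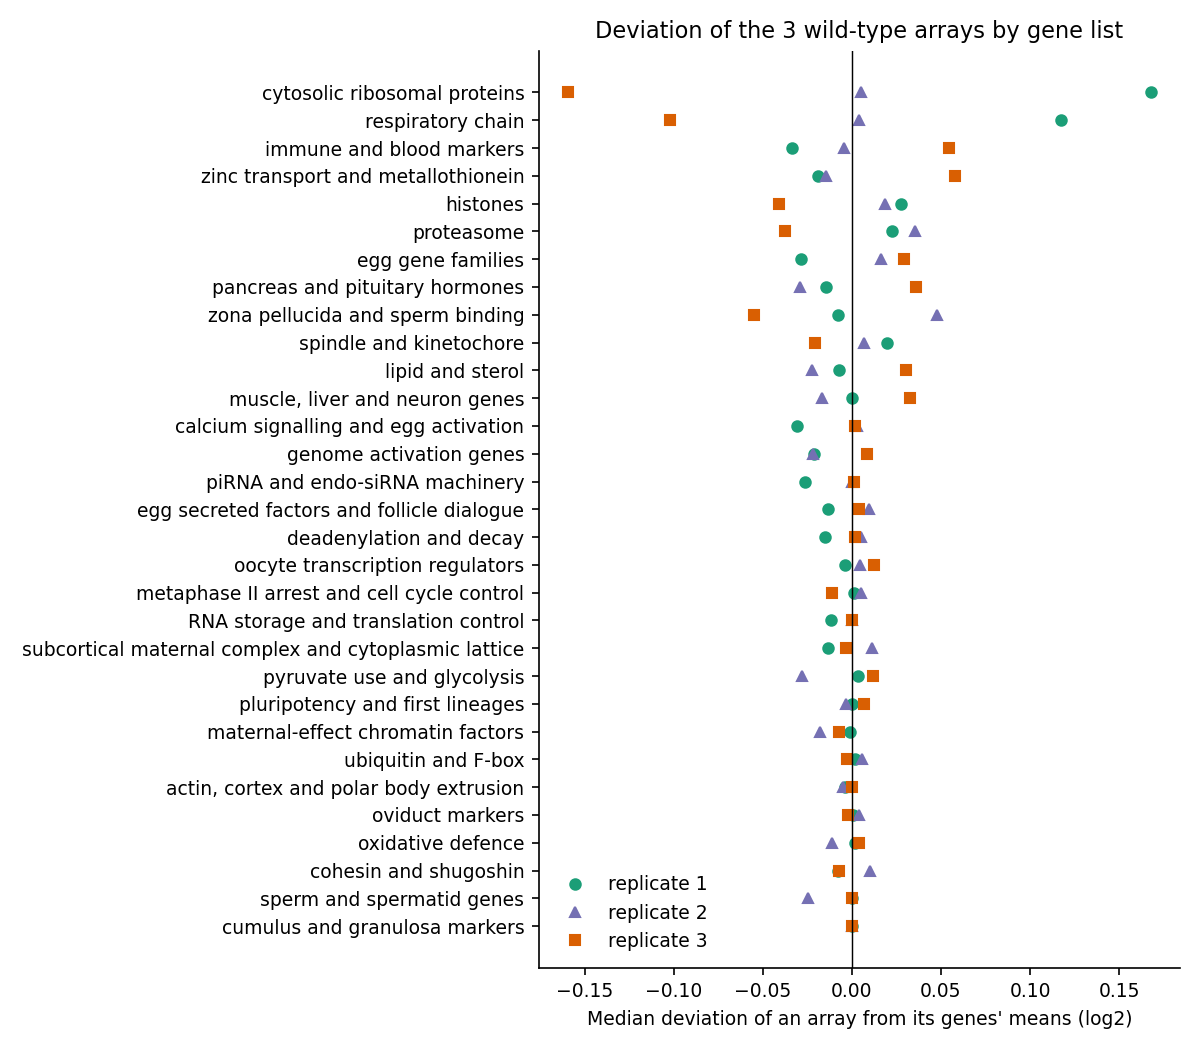
Median deviation of each of the 3 wild-type arrays from its genes' means (horizontal axis, log2), for each of the 31 lists. Ribosomal protein and respiratory chain genes stand apart, with replicate 1 at 0.17 and 0.12 and replicate 3 at -0.16 and -0.10.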

How the data were processed

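RNA of wild-type metaphase II oocytes was measured on 3 single-colour expression arrays labelled with biotin, with total RNA isolated by a PicoPure kit. The deposited log2 values, 1 per probe set and array, were made by the authors with GCRMA, per the submitters' processing notes; this method adjusts each probe for background by its base composition, brings the arrays to a common scale and combines the probes of a set. Neither version nor settings were given in the sources used here. Values ran from 1.05 to 13.3, none was missing, and no further normalization was applied.

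Of 35557 probe sets, the platform annotation names 1 gene for 21789, several for 1621, and 12147 are unnamed here. Only the first kind was used, and 999 genes had more than 1 probe set. Of 19938 genes, 19856 matched the reference table (GRCm38.p6) by Entrez identifier. That table served for names, the Y chromosome and the order of neighbours. Of the 981 list entries, 52 were found only in probe sets of several genes and 60 had no probe set named here.

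Bands, lists, runs and promoters were described without a test, since only 1 group was used, in Python 3.11.15 with pandas 2.3.3, numpy 2.4.6 and matplotlib 3.10.9. The steps were tested on simulated data of 2000 genes, where they recovered 100% of the planted high genes. The planted genes lay well above all others, so this checks the code and not how well the bands divide real levels. Promoters of 12435 protein-coding genes with 1 start in the RefSeq table were read on both strands; the count of CpG was chosen after the design, which named the ratio of observed to expected CpG. Genes named are Zp3, Gdf9 and Ooep, the 30 highest (predicted and small RNA names skipped), up to 6 highest and 3 lowest members of each list, the 10 above the limit with the largest SD, members of runs, and list members that stand apart in groups of 5 or fewer. The markers of other cell types, the Y chromosome genes and the flanking genes of runs are named as well, and others are marked in the text. The members and lists were chosen with earlier results of these data known. The number of arrays limits the precision.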

Additional observations from a re-analysis of the deposited data

How the results depend on the processing

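In all, 23 results were recomputed under 19 alternatives, 4 of them chosen after seeing the data, which gave 433 values. Of these, 409 stayed within 1.5 times the reported value or within the spread between arrays, and 24 moved further. Many values could not move: a change of the background limit, for instance, leaves counts in the high band as they are. None changed sign, but only the differences between replicates 1 and 3 could do so. The number of genes above background is set by the limit: it was 7010 with the 99th percentile of olfactory receptors in place of 11800. It was 15731 with a limit from vomeronasal receptors and 17202 with a fixed limit of 4. With a limit from vomeronasal receptors, 5 of 27 cumulus and granulosa markers were at background in place of 18, and 3 with a fixed limit of 4, since most of these markers lie between 4 and 5.5. Sperm genes at background numbered 11 and 7 under the same limits, beside 22, and genome activation genes 4 with the limit of 4, beside 9. The median CpG upstream of background genes was 6 with the 99th percentile and 1 with a limit of 4, beside 3. The runs of neighbouring high genes numbered 2 with the high band at 5% and 57 with it at 20%, beside 9. Genes with a range of at least 1 numbered 42 to 66 when 1 array was left out, beside 126, as fewer arrays give smaller ranges; the count was 42 without replicate 3, 60 without replicate 1 and 66 without replicate 2. The range of H2bc18 was 0.15 without replicate 3, beside 4.17. The counts of high members in the subcortical complex (14) and egg families (19) stayed within 1.5 times under all alternatives, while 9 ribosomal protein genes were high with the lowest probe set, beside 18. With the high band at 5%, high members numbered 6 for ribosomal proteins and 5 for the respiratory chain (beside 18 each), 9 for RNA storage (19), 10 for decay (16), 9 for chromatin factors (14) and 11 for actin (18). With it at 20%, ribosomal proteins and the respiratory chain had 34 each. No paired analysis was possible because no groups were compared. Signals near the limit cannot be told from background.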

Other observations

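Some transcripts that are not translated were found at high signal, a smaller share of their class than of all genes. Of 675 long noncoding RNAs, 15 (2.22%) were in the high band and 413 (61.2%) at background, beside 10% and 40.8% of all genes; the difference was not tested. The high ones included Gm1965 at 12.20, 12.28 and 12.33, AU015836 at 11.57, 11.62 and 11.64, Gas5, a host of small nucleolar RNAs, at 11.28, 11.42 and 11.29, and Tug1 at 10.51, 10.46 and 10.51. Rn7sk, the small nuclear RNA that restrains transcription elongation, gave 12.07, 11.95 and 11.98. None of 297 microRNA genes was high and 231 were at background, and none of 53 small nucleolar RNA genes was high; expression arrays of this kind measure precursors or host transcripts of such genes, not mature small RNAs. Genes in this paragraph other than Rn7sk and Gm1965 were named after their values were seen.

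Probe sets left out of the gene table also carried signal. Of 1621 probe sets with several genes, 377 (23.3%) reached the start of the high band, and of 12147 probe sets unnamed here 743 (6.12%) did, against 10.2% of the 21789 with 1 gene.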
